A study of Mus musculus with 18 samples.

Results

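The Klk1 cluster is a tandem array of tissue kallikrein genes on mouse chromosome 7, and 8 of its genes are described here in testes: Klk1, Klk1b5, Klk1b8, Klk1b21, Klk1b22, Klk1b24, Klk1b26 and Klk1b27. They were chosen by name with their measured testes values already known, so those values are given as a description with no test. They are 8 of the 37620 gene entries in the count files and 8 of the 14 protein-coding Klk1 family genes found there; Klk1b1, Klk1b3, Klk1b4, Klk1b9, Klk1b11 and Klk1b16 are the 6 others. The series measured polyadenylated RNA in mice of a C57B6/129 hybrid strain whose genotype labels K9M and K36M stand for inducible histone H3 that carries methionine in place of lysine 9 or of lysine 36. Every group, wildtype (WT) included, comes under the same treatment text, which gives 2 mg/ml doxycycline in the drinking water of males and females aged 6 to 8 weeks. The promoter that drives the histone, the length of induction and whether the WT mice carried a transgene are not given in the sources used here. Dissociated testes cells gave 2 libraries per genotype, each from a separate mouse, named here by genotype and mouse number: WT.1476, WT.1477, K9M.1516, K9M.1519, K36M.1485 and K36M.1553. The same 6 mice gave dissociated intestinal cells, and lineage-negative, cKit-positive marrow cells came from 6 other mice.

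Tissue kallikreins are secreted serine proteases. Klk1, the founding member, cleaves kininogen to release kinins, peptides that widen vessels through the bradykinin receptors. The Klk1b genes arose by duplication in rodents and are known above all from the ducts of the male submandibular gland, where androgens raise their expression. Klk1b3 and Klk1b4 encode the gamma and alpha subunits of the nerve growth factor complex, Klk1b22 and Klk1b9 encode proteins first described as binding epidermal growth factor, and Klk1b26 was described as a prorenin-converting enzyme. In the testis, Klk1b21, Klk1b24 and Klk1b27 have been described in Leydig cells, the interstitial cells that make testosterone.

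The genes are near copies, which bears on both their promoters and their counts. Among the 8 members, the 28 pairs of transcripts were identical at 83.5% to 94.4% of aligned bases (median 86.2%), and the pairs of promoters, taken as 250 bases before the annotated start, at 73.4% to 97.7% (median 80.9%). Klk1b21, Klk1b24 and Klk1b27 were close to one another on both measures, at 92.6% to 93.3% for transcripts and 90% to 97.7% for promoters. The 150 bases shown here for 6 members start at the same 13-base run, which all 6 hold, and end before each annotated start. They are shown because the first 4 belong to the members that were lower in K36M testes and the other two to members that were higher. Capitals mark the longest run that is identical in Klk1b21, Klk1b24 and Klk1b27.
Klk1b21: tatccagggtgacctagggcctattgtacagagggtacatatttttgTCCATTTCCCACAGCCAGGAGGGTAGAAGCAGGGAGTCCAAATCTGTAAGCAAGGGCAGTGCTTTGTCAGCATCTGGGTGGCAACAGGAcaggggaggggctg
Klk1b24: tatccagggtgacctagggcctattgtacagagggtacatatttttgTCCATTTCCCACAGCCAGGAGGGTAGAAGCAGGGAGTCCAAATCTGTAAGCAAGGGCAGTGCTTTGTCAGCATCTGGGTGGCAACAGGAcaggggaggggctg
Klk1b27: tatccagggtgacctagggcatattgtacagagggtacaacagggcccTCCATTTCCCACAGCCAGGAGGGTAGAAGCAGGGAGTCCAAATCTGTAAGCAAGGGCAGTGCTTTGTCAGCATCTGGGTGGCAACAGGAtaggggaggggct
Klk1b22: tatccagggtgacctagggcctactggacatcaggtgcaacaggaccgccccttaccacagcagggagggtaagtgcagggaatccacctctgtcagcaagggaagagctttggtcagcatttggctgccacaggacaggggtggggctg
Klk1b8: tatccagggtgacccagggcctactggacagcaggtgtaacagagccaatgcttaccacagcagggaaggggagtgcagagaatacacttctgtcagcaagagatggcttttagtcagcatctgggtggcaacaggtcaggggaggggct
Klk1b26: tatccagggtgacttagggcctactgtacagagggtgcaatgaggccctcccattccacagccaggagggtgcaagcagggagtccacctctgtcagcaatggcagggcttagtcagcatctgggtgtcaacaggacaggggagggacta
These are RefSeq sequences of GRCm38.p6, all on the plus strand, at chr7:44102130-44102279, chr7:44188039-44188188, chr7:44052105-44052254, chr7:44112465-44112614, chr7:43950454-43950603 and chr7:44012485-44012634 in the order shown. Klk1b21 and Klk1b24 were identical at 150 of the 150 positions. The capital run spans 89 bases. It was found in 3 of 32851 promoters of the same table on either strand, those of these 3 genes, and the longest piece of it in any of the 11 other Klk1 promoters was 29 bases. It was looked for after the values were seen. Klk1b22, which was also lower in K36M, does not hold it, and its promoter was closest to that of Klk1b9 (87.2%), a gene that was not lower.

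Short motifs were searched in windows from 250 bases before to 50 after the start, on both strands. TATAAA, the core of the TATA box, was in 0 of the 8 members and in 13.6% of all promoters. AGAACA, a half-site of steroid hormone receptors, was in 1 member, Klk1b24, and in 19% of all promoters. AAGGTCA, a half-site of orphan nuclear receptors such as NR5A1, was in 2 members, Klk1b21 and Klk1, and in 4.72% of all promoters. The Klk1b21 match was at -247 from its annotated start. The run that opens the stretches shown above began at -162 in Klk1b21 and between -212 and -185 in the other members shown. Counted from that run, the same place in those members lies before their windows, so a match there was not looked for. The motif counts describe letters in the windows and bear on no factor's binding.

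**Figure D1:**
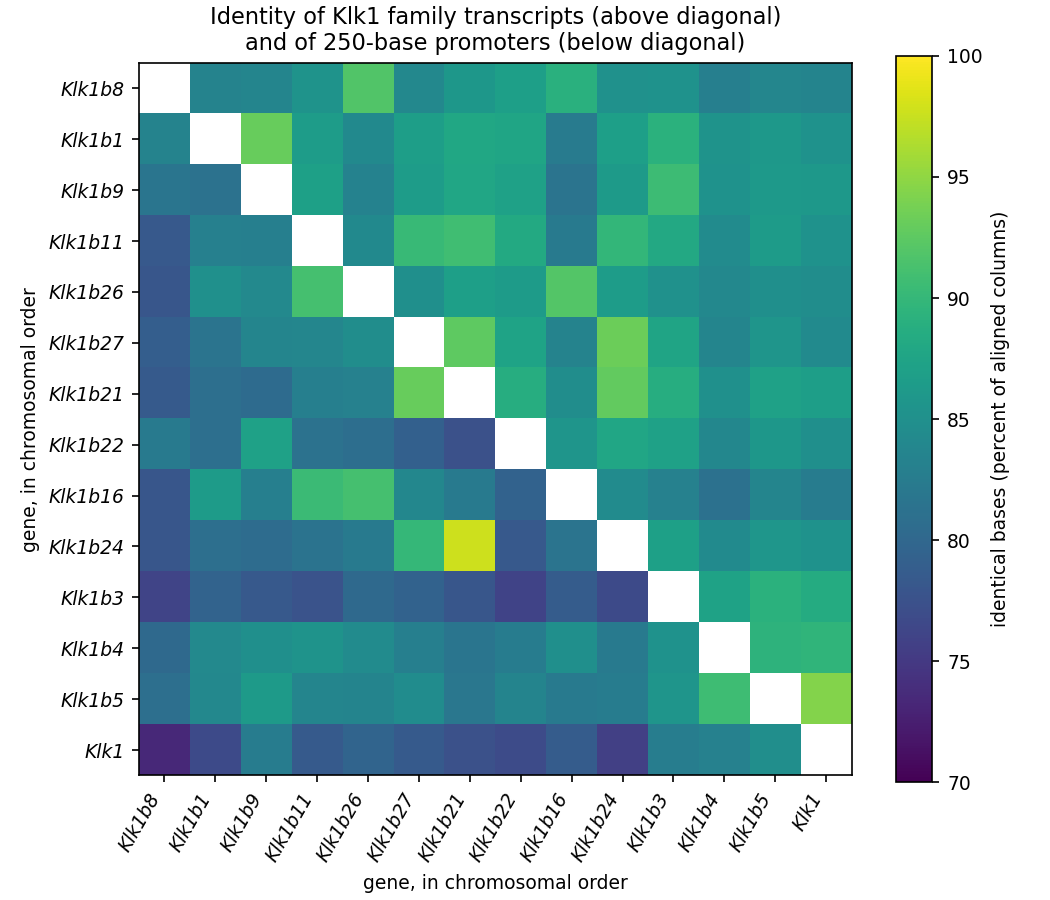
Share of identical bases (percent of aligned columns, colour scale) between the 14 Klk1 family genes in chromosomal order, for transcripts above the diagonal and for 250-base promoters below it. Klk1b21, Klk1b24 and Klk1b27 form a close trio on both sides of the diagonal, and Klk1b5 with Klk1 is the closest pair of transcripts at 94.4%.

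The count files keep reads without a unique alignment apart from the genes, so reads that fit several near copies equally well are not in these counts. The share of 50-base stretches of a member's longest coding transcript that occur in no other gene's transcripts was 66.1% in Klk1b24, 70.9% in Klk1b21, 71.6% in Klk1, 77.4% in Klk1b8, 82.9% in Klk1b5, 85% in Klk1b26, 85.7% in Klk1b27 and 86.7% in Klk1b22. Klk1b21 shared 20.6% of its stretches with Klk1b24. Counts of the members are therefore incomplete by amounts that differ between genes, and the levels of close copies are uncertain.

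Counts assigned to genes were 16122101 to 20993726 per testes library. In testes, 9476 of 19160 tested genes were called in K36M against WT at an adjusted p under 0.05 (49.5%), 13 in K9M against WT (0.0678%) and 9430 in K9M against K36M (49.2%), by edgeR's quasi-likelihood test. The median log2 fold change of all tested genes was 0.02, 0.01 and -0.02. The 2 K36M libraries differed from each other by more than the other pairs did, their counts giving a chi-square of 47.4 for each degree of freedom, against 2.39 for WT and 4.9 for K9M. Levels below are CPM, counts scaled to the size of the library, after TMM scaling, and fold changes are log2 values with their standard error (SE) from the fit.

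In WT testes Klk1b8 was the most abundant member per length of exon, at 53.9 ± 5.13 CPM per kb (SD, n = 2). Klk1b21 followed at 9.54 ± 0.439, Klk1b24 at 7.82 ± 0.0423, Klk1b26 at 7.3 ± 0.103 and Klk1b27 at 6.49 ± 0.298 CPM per kb. Klk1 stood at 2.34 ± 0.319, Klk1b22 at 1.36 ± 1.03 and Klk1b5 at 1.1 ± 0.0241 CPM per kb. Neighbours in this order were separated by more than their spread except around Klk1b22, whose WT libraries, at 0.632 and 2.08 CPM per kb, lay on both sides of Klk1b5 and reached nearly to Klk1.

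K36M testes had 4 members far lower and 4 higher than WT testes. Klk1b21, Klk1b22, Klk1b24 and Klk1b27 were lower by 3.63 to 5.75 on the log2 scale, and Klk1b8 and Klk1b26 were higher by over 2-fold. In all, 6 of 8 members had WT and K36M libraries that did not overlap and were at least 2-fold apart. Both conditions were met by 29.6% of all tested genes. Because the members were chosen on these values, nothing is read from that count. The median log2 fold change of the 8 was -1.49, in a range from -5.75 to 1.31. The median was 0.65 with the 2 genotypes fitted alone, where Klk1b22 was not tested, and -2.16 to -0.85 with 1 library left out.

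Klk1b24 stood at 6.84 and 6.89 CPM in WT.1476 and WT.1477, at 5.45 and 4.12 in K9M.1516 and K9M.1519, and at 0.18 and 0.0616 in K36M.1485 and K36M.1553. Both K36M libraries were near 0 and the 3 genotypes did not overlap. The K36M libraries held 4 counts together against 261 in WT, a ratio 56.5-fold lower with an exact 95% counting interval of 21.8 to 209, and the fitted log2 fold change was -5.75 ± 0.40, or -6.70 without K36M.1485.

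Klk1b21 stood at 8.04 and 8.58 CPM in WT, at 6.89 and 6.7 in K9M and at 0.3 and 0.555 in K36M, each pair in the order of mice given above. Both K9M libraries lay below both WT libraries, and both K36M libraries lay far below all others. The summed counts went from 317 in WT to 14 in K36M, 19.6-fold lower (11.5 to 36.3), with a fitted log2 fold change of -4.27 ± 0.28.

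Klk1b27 stood at 5.58 and 5.96 CPM in WT, at 5.07 and 2.71 in K9M and at 0.06 and 0.247 in K36M. The genotypes again did not overlap, and K9M.1519 lay well below K9M.1516. The counts went from 220 to 5, 38.1-fold lower (16.1 to 119), and the fitted log2 fold change was -5.19 ± 0.56, or -6.47 without K36M.1553.

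Klk1b22, first described as a protein that binds epidermal growth factor, was the scarcest of the 4. It stood at 0.54 and 1.78 CPM in WT, at 1.77 and 1.18 in K9M and at 0.06 and 0.123 in K36M. Both K36M libraries were below all others, while WT and K9M overlapped. With 3 counts in K36M and 47 in WT, the ratio was 13.6-fold lower with a counting interval of 4.37 to 68.2, and the fitted log2 fold change was -3.63 ± 0.88, or -2.48 without WT.1477. These intervals cover counting error only.

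Klk1b8 was the largest of the members that were higher. It stood at 43.2 and 49.4 CPM in WT, at 48.7 and 43.8 in K9M and at 79.9 and 149 in K36M. WT and K9M overlapped, and both K36M libraries lay above them but far from each other. The log2 fold change of K36M against WT was 1.31 ± 0.28, and it was 0.76 without K36M.1553.

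Klk1b26, described as a prorenin-converting enzyme, was also higher in both K36M libraries. It stood at 10 and 10.2 CPM in WT, at 9.95 and 9.09 in K9M and at 14.7 and 27.9 in K36M, a log2 fold change of 1.07 ± 0.29 that was 0.51 without K36M.1553. Without that mouse, 4 members instead of 6 were at least 2-fold apart with separate libraries.

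Klk1, the kinin-releasing enzyme, stood at 2.28 and 2.77 CPM in WT, at 2.34 and 1.95 in K9M and at 3.06 and 4.93 in K36M. The K36M libraries lay just above WT, with a log2 fold change of 0.65 ± 0.30, or 0.25 without K36M.1553. Klk1b5, whose transcript is the closest to that of Klk1, stood at 1.5 and 1.55 CPM in WT, at 1.58 and 1.54 in K9M and at 1.44 and 3.76 in K36M. Only K36M.1553 stood apart for Klk1b5, so its groups overlapped, and the log2 fold change of 0.76 ± 0.45 became -0.11 without that mouse.

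**Figure D2:**
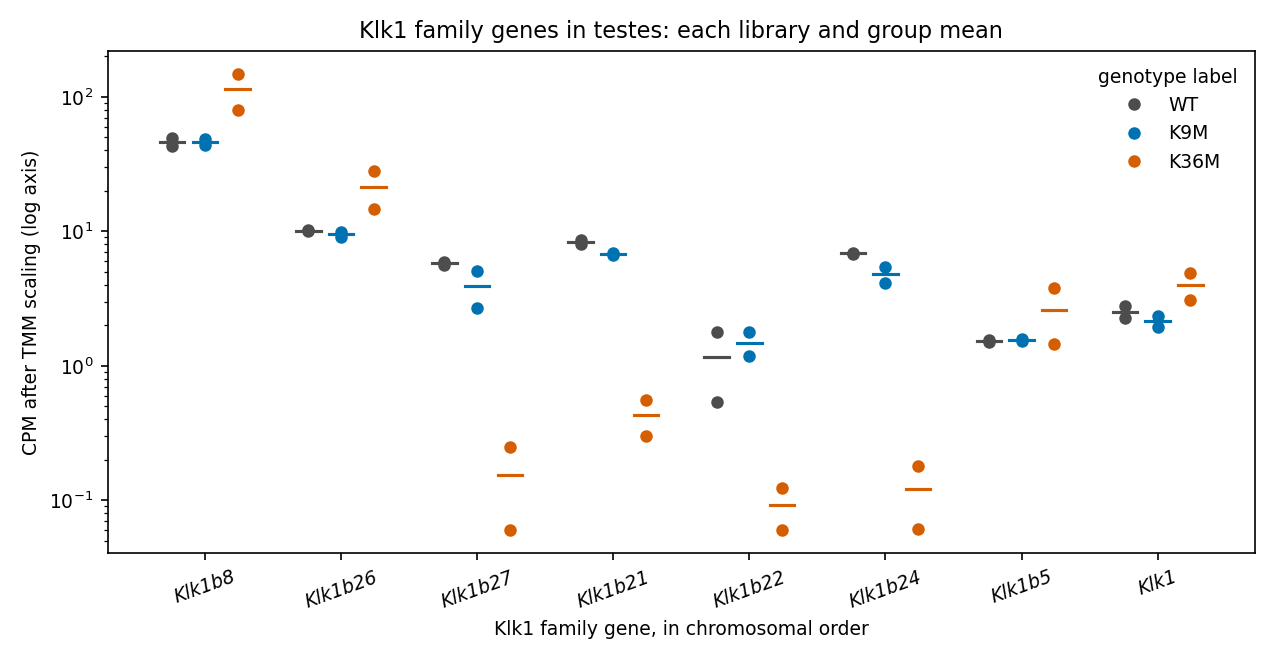
CPM after TMM scaling (log axis) of the 8 members in each testes library, in chromosomal order, coloured by genotype, with points for libraries and short lines for group means. In Klk1b27, Klk1b21, Klk1b22 and Klk1b24 both K36M points lie below 0.6 CPM and below every WT and K9M point, while in Klk1b8 and Klk1b26 they lie above.

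As a sum, the members were not lower in K36M testes. The summed level of the 8 was 78 and 87.1 CPM in WT, 81.8 and 71.1 in K9M and 99.7 and 187 in K36M. Klk1b8 made up 55.4% and 56.7% of that sum in WT, 59.6% and 61.6% in K9M and 80.1% and 79.9% in K36M. The 4 lower members summed to 21 and 23.2 CPM in WT, to 19.2 and 14.7 in K9M and to 0.6 and 0.986 in K36M. Counted as 1 feature, the 8 members had a log2 fold change of 0.79 ± 0.28 in K36M against WT, opposite in sign to their median, and in cells taken in bulk a smaller number of cells of a type and less RNA per cell cannot be told apart.

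For each of the 8 members, K9M testes stayed nearer to WT than K36M testes did. The log2 fold changes of the 8 members in K9M against WT ran from -0.57 in Klk1b27 to 0.29 in Klk1b22, with a median of -0.17. In 4 members, Klk1b21, Klk1b24, Klk1b26 and Klk1b27, both K9M libraries lay below both WT libraries. The share of all tested genes with separate libraries at any fold change was not counted, so nothing is read from that number. None of the 8 was at least 2-fold apart, where 1.65% of all tested genes were with separate libraries. The values were -0.52 ± 0.23 in Klk1b24, -0.29 ± 0.19 in Klk1b21 and -0.09 ± 0.29 in Klk1b26. Klk1b27 would be at -1.09 without K9M.1516.

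K9M against K36M gave the same split of members, and it shares its K36M libraries with the comparison above. Klk1b24 was 5.22 ± 0.41 higher in K9M on the log2 scale, Klk1b27 4.62 ± 0.58, Klk1b21 3.97 ± 0.28 and Klk1b22 3.92 ± 0.85. Klk1b8 and Klk1b26 stood at -1.31 ± 0.28 and -1.16 ± 0.29, Klk1 at -0.90 ± 0.30 and Klk1b5 at -0.73 ± 0.44. In all, 6 of 8 were at least 2-fold apart with separate libraries, beside 29.0% of all tested genes.

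The lower members are neighbours. In the annotation's gene order the cluster runs Klk1b7-ps, Klk1b8, Klk1b1, Klk1b9, Klk1b11, Klk1b26, Klk1b27, Klk1b21, Klk1b22, Klk1b16, Klk1b24, Klk1b3, Klk1b4, Klk1b5, the pseudogene Gm10109 and Klk1. The 4 lower members lie within a stretch of 5 genes whose other gene is Klk1b16. Klk1b16, which is no member, was tested and fell in K36M testes. It stood at 1.74 and 2.2 CPM in WT, at 2.01 and 1.63 in K9M and at 0.66 and 0.74 in K36M, with a log2 fold change of -1.50 ± 0.32 (adjusted p = 0.0102, edgeR's quasi-likelihood test), a call that was lost without WT.1477 (adjusted p = 0.0764). Klk1b16 rests on 177 counts over the 6 libraries, and its transcript was 92% identical to that of Klk1b26, which was higher.

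None of the non-member Klk1 genes tested outside that stretch fell. Of 4 non-member paralogs tested, 1 rose and 1 fell in K36M against WT, and 2 did not pass (49.5% of all tested genes were called). Klk1b4, the alpha subunit of the nerve growth factor complex, rose by 1.65 ± 0.52 (adjusted p = 0.0353), from 9 and 5 counts in WT to 14 and 25 in K36M, a call that was lost when any of 5 of the libraries was left out (1.13 without WT.1477) and with DESeq2 (adjusted p = 0.0674). Klk1b3, its gamma subunit, stood at 0.62 ± 0.27 (adjusted p = 0.0999), at 0.87 without K36M.1485 and at 0.23 without K36M.1553. Klk1b9 stood at 12.8 and 13.2 CPM in WT, at 10.2 and 9.82 in K9M and at 15.5 and 32.6 in K36M, or 0.88 ± 0.32 (adjusted p = 0.0576). DESeq2 called Klk1b9 (adjusted p = 0.0419), and the value was 1.28 without K36M.1485 and 0.23 without K36M.1553. In K9M against K36M, Klk1b9 fell by 1.26 (SE 0.32, adjusted p = 0.0196) and Klk1b16 was higher by 1.37 ± 0.32 (adjusted p = 0.0135). The pseudogene Klk1b7-ps, singled out for its place, rose by 1.19 ± 0.19 in K36M against WT (adjusted p = 0.00464). Klk1b1 and Klk1b11 had 31 and 21 counts over all 6 libraries and were not tested.

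**Figure D3:**
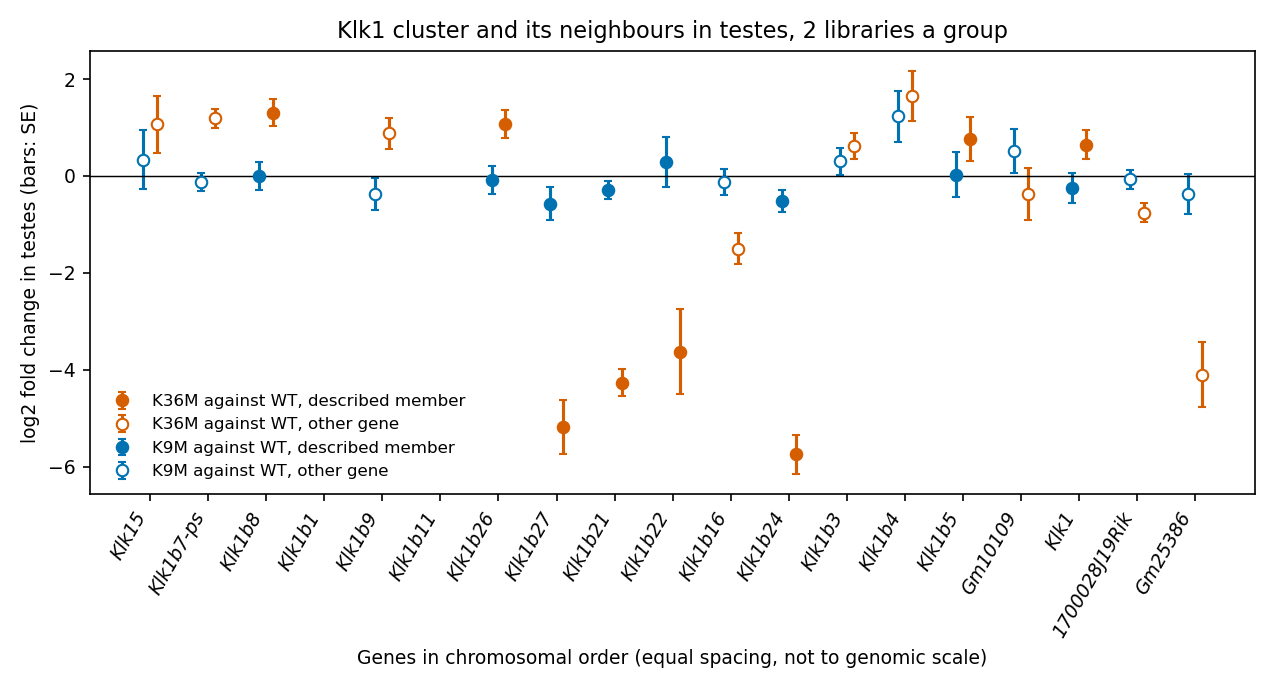
Log2 fold change in testes (points, with SE bars) of K36M and K9M against WT for the genes of the Klk1 cluster and its neighbours in chromosomal order, equally spaced, with filled points for the 8 members and open points for other genes. K36M points from Klk1b27 to Klk1b24 lie between -5.75 and -1.50, the Klk1 genes on either side lie above 0, and the K9M points stay between -0.57 and 1.23.

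Farther along the kallikrein locus, 2 of 13 listed genes were abundant enough to test. Klk15, a kallikrein at the end of the array opposite Klk1, stood at 1.07 ± 0.59 in K36M against WT (adjusted p = 0.169), and neither it nor the acid phosphatase gene Acp4 passed (0 of 2 at an unadjusted p under 0.05, and 0 with DESeq2). Klk15 stood at 1.64 without K36M.1485 and at -0.01 without K36M.1553, and Acp4 at 0.38 and 0.08. Klk13 had no count in any testes library.

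Genes of Leydig cells moved in both directions beside the members. Of 18 on the list, 9 fell and 5 rose in K36M testes, with a median log2 fold change of -0.78 beside 0.02 over all tested genes. Cyp11a1, the enzyme that begins steroid synthesis from cholesterol, stood at 97 and 70.7 CPM in WT, at 39.7 and 89.7 in K9M and at 3.54 and 8.2 in K36M. It fell by 3.84 ± 0.53 (adjusted p = 0.00393), a call that was lost without K36M.1485 (-3.39, adjusted p = 0.102) and without K36M.1553 (-4.58, adjusted p = 0.091). Scarb1, the receptor for high-density lipoprotein, rose by 1.02 ± 0.15 (adjusted p = 0.00397, and 0.0507 without WT.1477), and Aldh1a1, a retinaldehyde dehydrogenase, stood at 0.35 ± 0.17 (adjusted p = 0.136).

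Other Leydig genes are given here after their values were seen. Cyp17a1, which makes androgen precursors, fell by 5.02 ± 0.72 (adjusted p = 0.00419), Hsd3b6 by 3.45 ± 0.65 (adjusted p = 0.00794) and Lhcgr, the luteinizing hormone receptor, by 2.52 ± 0.52 (adjusted p = 0.00984). Insl3, a peptide hormone of Leydig cells, fell by 0.87 ± 0.25 (adjusted p = 0.0257), while Nr5a1, the steroidogenic transcription factor, rose by 0.73 ± 0.16 (adjusted p = 0.0118). None of these 5 calls held in every fit with 1 library left out. Those of Cyp17a1, Hsd3b6, Lhcgr and Insl3 were lost without either K36M library, with values of -6.32 and -4.38 for Cyp17a1 and of -4.87 and -2.78 for Hsd3b6 without K36M.1485 and K36M.1553. That of Hsd3b6 was also lost with no filter on low counts (adjusted p = 0.0728). Those of Lhcgr and Nr5a1 were lost without either WT library, and that of Insl3 without WT.1477 (-0.55). No defining marker was at 0. The list summed to 1060 and 929 CPM in WT, 687 and 1120 in K9M and 759 and 762 in K36M. Most of the K36M sum came from Scarb1 and Aldh1a1, with group means of 268 and 260 CPM, which did not fall. Cyp17a1 had group means of 201 CPM in WT and 6.18 in K36M, and Hsd3b6 of 75.5 and 6.9. Within WT and within K9M, the mouse lower for the list's sum and for Cyp11a1 was the higher for Klk1b21, Klk1b22, Klk1b24 and Klk1b27. Within K36M, K36M.1485 was the lower for Cyp11a1, Klk1b21, Klk1b22 and Klk1b27, and K36M.1553 was the lower for Klk1b24. Some of these gaps were small, as for Klk1b21 in K9M (6.89 and 6.7 CPM). In K36M the orders of these members rest on 1 to 9 counts per library, so nothing is read from them. The part of Leydig cells in the members' values was not tested.

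Genes of the seminiferous tubules also moved. Of 16 Sertoli cell genes, 13 rose and none fell in K36M testes, with a median of 1.34. Wt1 rose by 1.60 ± 0.16 (adjusted p = 0.00241), Gata4 by 1.24 ± 0.13 (adjusted p = 0.00243), and the abundant secreted products Clu and Ctsl by 1.63 ± 0.18 and 1.66 ± 0.18. The Sertoli list summed to 1340 and 1380 CPM in WT, 1500 and 1660 in K9M and 3420 and 4600 in K36M. Of 17 germ cell genes, 6 rose and 6 fell, at a median of 0.02. The 6 that fell were Spo11 (-2.27), Hormad1 (-1.49), Ddx4 (-1.24), Sycp3 (-1.24), Sycp1 (-0.98) and Dazl (-0.62). Prm1, Prm2, Tnp1, Tnp2 and Odf1, which all rose, make up most of the summed level of the list. The sperm chromatin and tail genes Prm1, Prm2 and Odf1 rose by 1.36 ± 0.23, 1.56 ± 0.19 and 1.42 ± 0.18, and the call of Prm1 was lost without either WT library (adjusted p = 0.0567 and 0.0512). The germ list summed to 11900 and 12100 CPM in WT, 13000 and 12000 in K9M and 22700 and 32500 in K36M, so K36M.1553, the mouse with the most Klk1b8, Klk1b26, Klk1b5 and Klk1, was also the higher for both sums.

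**Figure D4:**
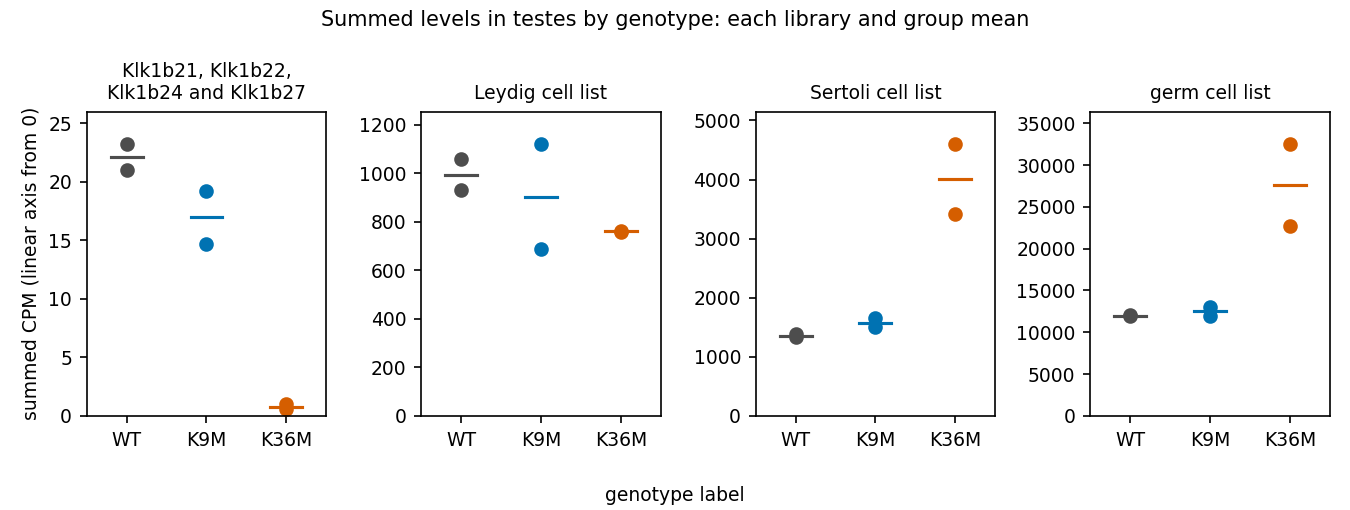
Summed CPM (linear axes from 0) in each testes library, with lines for group means, of the 4 lower members and of the Leydig, Sertoli and germ cell lists. The 4 members sum to 0.6 and 0.986 CPM in K36M, the Leydig list to 759 and 762, and the Sertoli and germ lists are highest in K36M. Scarb1 and Aldh1a1 make up most of the Leydig sum in K36M, and Prm1, Prm2, Tnp1, Tnp2 and Odf1 most of the germ sum.

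Lists of the other cells that a testis preparation could hold were checked for the same libraries. Peritubular myoid genes had 5 rises and no fall among 6 (median 0.65), endothelial genes 3 rises and no fall among 6 (0.86), and macrophage genes 4 rises and 2 falls among 8 (0.18). The salivary gland list, which marks the tissue best known for Klk1b expression, had 2 of 10 genes abundant enough to test and neither Ren1 nor Amy1 passed (0 at an unadjusted p under 0.05, and 0 with DESeq2). The salivary genes Dcpp3, Scgb1b27 and Scgb2b27 had no count in testes, and the list summed to 12.2 to 21.6 CPM. Pancreatic acinar genes had 1 fall among 4 and a sum of 3.36 to 6.54 CPM, kidney genes 2 falls among 3 and a sum of 5.63 to 9.42 CPM in WT and K9M and of 4.07 and 4.08 in K36M. Epididymal and accessory gland genes had 2 rises and 2 falls among 4. Intestinal epithelium genes had 1 rise and 1 fall among 7, and marrow progenitor genes 0 calls among 7 (0 at an unadjusted p under 0.05, and 0 with DESeq2). In K9M against WT no gene of the 18 lists was called among 154 tested, with 9 at an unadjusted p under 0.05 and 0 called with DESeq2.

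The kinin pathway around Klk1 had 8 rises and 4 falls among 18 tested genes in K36M testes, with a median of -0.09. Ace, which degrades bradykinin, rose by 1.01 ± 0.16 (adjusted p = 0.00453), a call that was lost without either WT library (adjusted p = 0.0544 and 0.052). Cpe, a carboxypeptidase of secretory granules, rose by 1.58 ± 0.19 (adjusted p = 0.00277), and Cpn1, the kininase subunit that clips the last residue from kinins, had 11 and 11.9 CPM in both WT mice, then 4.38 and 3.58 in the K36M mice (-1.53 ± 0.18, adjusted p = 0.00268). Agt, the precursor of angiotensin, stood at -0.35 ± 0.22 (adjusted p = 0.215). The bradykinin receptor genes Bdkrb1 and Bdkrb2, named after their values were seen, did not pass, at -0.27 ± 0.40 (adjusted p = 0.635) and -1.92 ± 0.83 (adjusted p = 0.0944). Bdkrb2 stood at -2.87 without K36M.1485 and at -1.40 without K36M.1553.

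Growth factors and binding proteins that kallikreins are known to process had 2 rises and no fall among 6, at a median of 0.87. Igfbp3, a carrier of insulin-like growth factors, had 1.5 and 1.92 CPM in the WT mice and rose to 20.7 and 25.6 in K36M (3.74 ± 0.30, adjusted p = 0.00241), with K9M between them at 3.06 and 5.16. Tgfb1, a latent growth factor, rose by 1.65 ± 0.14 (adjusted p = 0.00241), and Igfbp4 stood at 0.20 ± 0.30 (adjusted p = 0.604).

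Inhibitors of serine proteases had 6 rises and 2 falls among 13, at a median of 0.53. Serpina5, the protein C inhibitor of the male tract, stood at 62.5 and 66.1 CPM for WT and rose to 218 and 308 for K36M (2.03 ± 0.19, adjusted p = 0.00241). Serpina3a rose by 1.81 ± 0.18 and Pebp1 by 0.69 ± 0.16, while Spink2, an acrosomal inhibitor of spermatids, fell by 0.96 ± 0.19 (adjusted p = 0.00816). The calls of Pebp1 and Spink2 were lost without either WT library (adjusted p = 0.101 and 0.0953 for Pebp1, 0.0573 and 0.0612 for Spink2). The androgen response list had 6 rises and 1 fall among 13, at a median of 0.48. Fkbp5 and Tsc22d3, known targets of steroid receptors, rose by 0.97 ± 0.19 and 0.94 ± 0.13, and Ptgds stood at 0.38 ± 0.18 (adjusted p = 0.113). The call of Fkbp5 was lost without either WT library (adjusted p = 0.0737 and 0.0535).

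Outside testes, Klk1 in intestine had the highest level of any member. The testes values had a part in the choice of the members, so their differences between testes and intestine, fitted over the 12 libraries of the same mice, are a description with no test. In that fit 7 of 8 members were called beside 89.4% of all tested genes, and nothing is read from that count. The median of all genes was 0.60 higher in testes. Klk1b8 was 9.61 ± 0.53 higher in testes on the log2 scale, Klk1b24 6.68 ± 0.75, Klk1b26 6.15 ± 0.41 and Klk1b21 5.96. Klk1b5 and Klk1b27 were 2.73 ± 0.42 and 2.58 ± 0.47 higher. Klk1 went the other way, at -3.28 ± 0.18, and Klk1b22 stood at 0.57 ± 1.44. For some members a whole intestine genotype had no count: Klk1b8 (K9M), Klk1b21 (WT), Klk1b22 (K36M) and Klk1b24 (K9M and K36M). The fitted values of these members are no bound. The intestine library WT.1476 summed to 224 CPM for germ cell genes, against 8.07 to 33.3 in the other 5, and held 11 of the 13 Klk1b8 counts of intestine. Without it the difference was 11.74 for Klk1b8, 7.56 for Klk1b26 and 3.25 for Klk1b22. These fitted values are no bound, because the remaining WT intestine library had no count of these genes.

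In intestine, where Klk1 is known from mucus-secreting goblet cells, Klk1 stood at 35.5 and 35.9 CPM in WT.1476 and WT.1477, at 17.6 and 17.3 in K9M.1516 and K9M.1519 and at 5.68 and 8.62 in K36M.1485 and K36M.1553. The 3 genotypes did not overlap and WT was the highest. Klk1 fell by 2.31 ± 0.23 in K36M against WT (adjusted p = 0.00272), where 23.3% of 14246 tested genes were called. K9M stood at -1.03 ± 0.22 against WT and did not pass (adjusted p = 0.185, unadjusted p = 0.00262), where 0.211% of genes were called. DESeq2 called it (adjusted p = 0.0188), as did the fit of the 2 genotypes alone (adjusted p = 0.0182). K9M was higher than K36M by 1.28 ± 0.23 (adjusted p = 0.0119), where 25.1% of genes were called, and that call was lost without either K9M library (adjusted p = 0.0775 without K9M.1516 and 0.0767 without K9M.1519). Muc2, the main mucin of goblet cells, is given beside it: 975 and 1190 CPM in WT, 516 and 655 in K9M and 38.2 and 67.4 in K36M, so that Muc2 fell by 4.35 ± 0.34 in K36M against WT (adjusted p = 0.00152). The part of goblet cells in the fall of Klk1 was not tested.

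**Figure D5:**
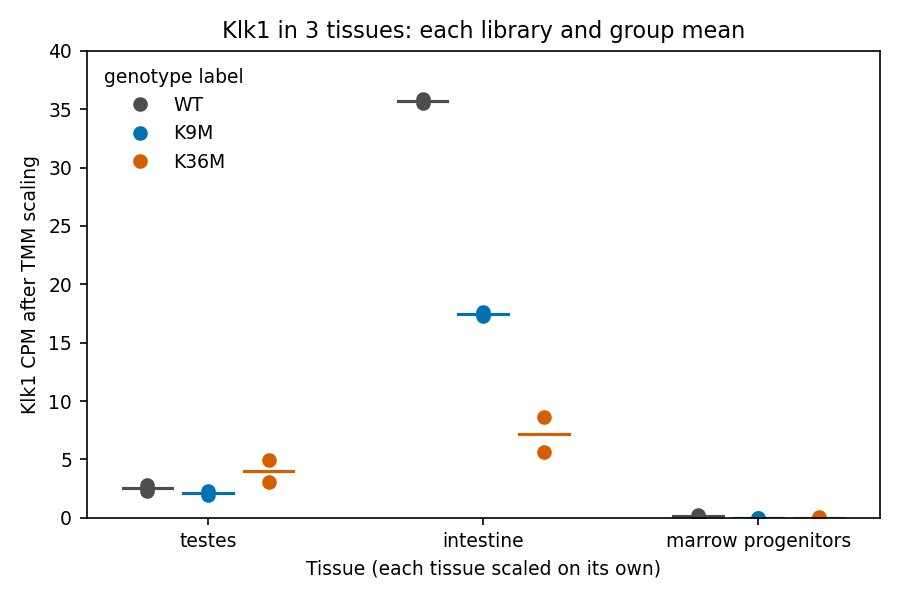
Klk1 CPM after TMM scaling (linear axis from 0) in each library of testes, intestine and marrow progenitors, with lines for group means and colours for genotype. In intestine Klk1 is at 35.5 and 35.9 CPM in WT and at 5.68 and 8.62 in K36M, while in testes the K36M libraries, at 3.06 and 4.93, are the highest.

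Klk1b22 was the only other member abundant enough to test in intestine. It had 38 and 0 counts in WT, 74 and 15 in K9M and 0 and 0 in K36M. K9M.1516 held the most, the 2 WT libraries lay far apart, and no comparison passed (adjusted p = 0.152 for K36M against WT, 0.835 for K9M against WT and 0.0853 for K9M against K36M). The other members had at most 11 counts in any intestine library. In marrow, where no member could be tested, Klk1 had 0 to 5 counts per library, Klk1b26 and Klk1b27 at most 1, and Klk1b5, Klk1b8, Klk1b21, Klk1b22 and Klk1b24 none.

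Genes whose testes levels followed the summed level of the 8 members were found over the same 6 libraries by Pearson's r of log2 CPM among 14102 genes. The closest were Ghr (r = 0.9973), the growth hormone receptor, then Zfp474 (0.9967), Slc25a32 (0.9962), Lonrf2 (0.9962), Cd300lg (0.9953) and Ralgapa2 (0.9942). Ghr stood at 4.32 and 5.11 CPM in WT, 4.74 and 4.21 in K9M and 5.58 and 9.74 in K36M. Like the sum, it was highest in K36M.1553, and 6 libraries that share their mice and scaling leave such values as a description. Klk1b8 made up 55.4% to 80.1% of the sum, so the genes named followed mainly Klk1b8. The 4 lower members went the other way in K36M.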

How the data were processed

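Polyadenylated RNA was measured in 18 libraries, 3 genotypes in each of 3 tissues with 2 mice per group. The authors deposited raw read counts per gene, for which the submitters' processing notes name STAR, HTSeq and the build mm9. Versions, strand setting and annotation are not given in the sources used here. The 5 entries that name no gene stayed out of library sizes and tests. In testes, reads without a unique alignment made up 15.3% to 16.2% and ambiguous reads 2.21% to 2.39% of all entries. Symbols, gene order and exon lengths came by gene ID from GENCODE M21 (GRCm38), and promoters from RefSeq (GRCm38.p6, 14 of 14 Klk1 genes matched). No other coordinates are given.

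Each tissue was fitted alone in R 4.3.3 with edgeR 4.0.16 (TMM, filterByExpr, robust quasi-likelihood, 3 residual degrees of freedom, Benjamini-Hochberg adjustment over all genes, threshold 0.05). The testes and intestine libraries were also fitted together as 6 group means. The fit was also run on simulated testes counts with the same spread in every group. That run does not cover the wider spread of the K36M testes pair. Alignments used Biopython 1.88, local for transcripts and global for promoters. The members and gene lists were chosen with earlier results of these data known. The rule for named genes took, from each list, the 2 with the smallest p in K36M against WT testes and the 2 most abundant; those of lists for other cells and organs are given as counts, and a gene that the rule named is not reported here. Alternatives were DESeq2 1.42.0, its size factors, library size alone, no filter on low counts, the 2 genotypes alone, each library left out, the mouse as a block and the members summed. The labels name the same 6 mice for testes and intestine, which is where the pairing comes from, and deviations from the group mean had correlations of 0.0368 (WT), 0.0881 (K9M) and -0.0281 (K36M). P-values rest on a spread between mice that each fit shares over its groups, with 2 mice per group. In testes the K36M pair, the most unlike, therefore also enters the comparison of K9M with WT. In a fit with 1 library left out, the group left with 1 mouse adds no spread of its own.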

Additional observations from a re-analysis of the deposited data

Results flagged for a closer look

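Klk1 moved in opposite directions in the 2 tissues taken from the same mice. In K36M against WT, both K36M libraries lay above both WT libraries in testes (log2 fold change 0.65) and below both in intestine (-2.31). In K9M against K36M, both K9M libraries lay below in testes (-0.90) and above in intestine (1.28). The difference between the tissues in these contrasts was not tested, because the testes values had a part in the choice of Klk1. Without K36M.1553 the testes value in K36M against WT was 0.25. With 2 libraries per group, no single library could be tested for standing apart from its group.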

How the results depend on the processing

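Wherever they were tested, the 4 lower members stayed lower in K36M than in WT testes under every setting run, and Klk1b8 and Klk1b26 stayed higher. The count of members at least 2-fold apart with separate libraries ranged from 4 to 7 of 8 in K36M against WT when 1 library was left out, from 4 to 8 in K9M against K36M, and from 0 to 1 in K9M against WT. A group left with 1 library overlaps less easily, so these counts are not like for like with those of the full set. The median of the members is less steady: it was 0.65 in K36M against WT with the 2 genotypes alone, where Klk1b22 was not tested, and the summed members gave 0.79, and -0.90 in K9M against K36M. With the mouse as a replicate block, 7 members were called between testes and intestine, as without it, a count at the share of all genes (89.4%) from which nothing is read, and the block changed no other call of a member. Leaving out 1 library moved the genes called in testes to between 2310 and 12934 in K36M against WT, 0 and 12901 in K9M against K36M, and 0 and 247 in K9M against WT. The last count was 37 with no filter on low counts, 40 with DESeq2 and 213 with the 2 genotypes alone. In intestine, the members called in K9M against WT numbered 1 with DESeq2, with no filter and with the 2 genotypes alone, and 0 to 1 with 1 library left out. In K9M against K36M they numbered 2 with no filter and with the 2 genotypes alone, and 0 to 2 with 1 library left out. In K36M against WT they numbered 2 with no filter. Among non-members in testes, values with 1 library left out ran from -0.34 to 0.54 in Igfbp4, from -1.56 to 2.64 in Ren1 and from -0.01 to 1.64 in Klk15. Library size alone shifted the median of all genes in K36M against WT from 0.02 to -0.12. The cause of these changes was not tested. Members with 14 or fewer counts in K36M testes have wide counting intervals.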

Other observations

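Receptors for angiotensin, a peptide system that shares its converting enzyme with the kinins, split in K36M testes. Agtr1b fell by 4.04 ± 0.67 on the log2 scale (adjusted p = 0.00523, edgeR's quasi-likelihood test) and Agtr1a by 1.92 ± 0.36 (adjusted p = 0.0077), while Agtr2 rose by 1.62 ± 0.47 (adjusted p = 0.0275). The call of Agtr1a was lost without either WT library (adjusted p = 0.0502 and 0.0531), and that of Agtr2 without any 1 library but K36M.1485 and with the 2 genotypes alone (adjusted p = 0.0566). Agtr1b had 61 counts in WT and 3 in K36M. It stood at -7.98 without K36M.1485, a fitted value that is no bound because the remaining K36M library had no count of it. They were singled out after their values were seen. Beyond Klk1 on the chromosome, the RNA gene Gm25386 fell by 4.10 ± 0.67 in K36M testes (adjusted p = 0.00497), from 39 and 65 counts in WT to 5 and 0, and its neighbour 1700028J19Rik fell by 0.76 ± 0.20 (adjusted p = 0.0194). Without K36M.1485, Gm25386 stood at -8.74, a fitted value that is no bound because the remaining K36M library had no count. The call of 1700028J19Rik was lost without any 1 of the WT or K9M libraries and with the 2 genotypes alone (adjusted p = 0.0513). Strand use in counting is not given in the sources used here, so overlapping genes cannot be told apart.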
